A study of Mus musculus with 8 samples.

Results

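Notch signalling was followed through 10 genes chosen by their symbols from the 56691 rows of a table of RNA sequencing counts. They are the receptor genes Notch1, Notch2 and Notch3, the ligand genes Jag1, Jag2, Dll1 and Dll4, and Hes1, Dtx4 and Nrarp, which act downstream of the receptors or on them. All 10 had a row. The counts came from organoids, 3-dimensional cultures grown from mouse epithelium of the glandular stomach (hindstomach), isolated on embryonic day 18.5. The Ctrl group held 4 libraries of genotype Shh-Cre, the YAP5SA group 4 of genotype Shh-Cre;YAP5SA, and all 8 cultures had 5 days in growth medium before 7 days in differentiation medium. Both groups thus carry Shh-Cre, a recombinase driven from the Sonic hedgehog gene and active in cells, and the descendants of cells, that express it. YAP5SA is a form of the transcriptional coactivator YAP that resists inhibition by the Hippo pathway because its inhibitory phosphorylation sites are mutated. The comparison asks how these genes differ between epithelium that carries YAP5SA and epithelium without it, under differentiation conditions. The labels name no embryo, litter or culture day, so the spread behind each p-value is only that between these samples and may be technical.

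Notch receptors are single-pass membrane proteins that are switched on by ligands of the Jagged and Delta-like families on a neighbouring cell. Binding exposes the receptor to cleavage by an ADAM protease and then by the gamma-secretase complex, and the freed intracellular domain enters the nucleus, joins the DNA-binding protein RBPJ and turns on genes such as Hes1 and Nrarp. In the stomach the pathway is known for its part in maintaining progenitor cells and in the balance between cell lineages.

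Total counts were 17387372 to 25841256 per library. The epithelial label was checked against 12 markers of gastric epithelium, all of which reached 1 CPM (a count per 1000000 counts of the library), with summed levels of 39761 to 55939 CPM in Ctrl and 12142 to 14880 CPM in YAP5SA. Most of the Ctrl sum came from the secreted peptide genes Gkn1 and Tff1, and 10 of the 12 fell, while Epcam, a general epithelial marker, rose from 296 ± 26.4 to 592 ± 24.01 CPM (SD, n = 4 each) and Krt18 was not called. Markers of fibroblasts, 10 genes, summed to at most 1.07 CPM in any library, and Col1a2, Lum and Barx1 were at 0 throughout. Markers of immune cells, 10 genes, summed to 9.65 to 19.0 CPM in Ctrl and 69.4 to 75.1 CPM in YAP5SA, with Adgre1 and Tyrobp at 0 throughout. The rise came mainly from Csf1r, with 25 counts over the Ctrl and 2629 over the YAP5SA libraries, and Cd68, with 955 and 3106. Lyz2 and Itgam had more counts in every YAP5SA library as well. Ptprc went the other way, with 15 and 3 counts, as did Cd3e with 4 and 0. Laptm5, with 84 and 69, was not called, so these markers did not move one way. Markers of neurons and enteric glia summed to 5.57 to 6.94 CPM in Ctrl and 3.50 to 4.58 CPM in YAP5SA, with Sox10 and Elavl4 at 0. Over the Ctrl and YAP5SA libraries, Ret fell with 294 and 156 counts and Tubb3 with 79 and 21. Uchl1 rose with 35 and 96, and S100b, with 29 and 42, was not called, so these markers did not move one way either. The part of these differences in the results below was not tested. Xist, expressed from the inactive X chromosome, had 8436 to 12237 counts in Ctrl against 0 to 8 in YAP5SA, and 4 Y-linked genes had counts in the YAP5SA libraries only. Genotype and sex, as these transcripts mark it, therefore cannot be told apart for any gene reported here, on whichever chromosome it lies. None of the 10 genes is on a sex chromosome: in the GRCm38 assembly Notch1, Nrarp, Dll4 and Jag1 are on chromosome 2, Notch3 and Dll1 on chromosome 17, Notch2 on 3, Jag2 on 12, Hes1 on 16 and Dtx4 on 19.

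Sequence upstream of the start site was taken from RefSeq (GRCm38.p6), which held 9 windows of 250 bases for 8 of the 10 genes. The windows of a gene that fell (Nrarp), of the ligand gene with the steepest fall (Dll4) and of a receptor gene that did not pass the test (Notch1) are shown 5′ to 3′ on the strand of the gene. Capitals mark matches to the motifs described after them, on either strand.
Nrarp, chr2:25180508-25180757, plus strand: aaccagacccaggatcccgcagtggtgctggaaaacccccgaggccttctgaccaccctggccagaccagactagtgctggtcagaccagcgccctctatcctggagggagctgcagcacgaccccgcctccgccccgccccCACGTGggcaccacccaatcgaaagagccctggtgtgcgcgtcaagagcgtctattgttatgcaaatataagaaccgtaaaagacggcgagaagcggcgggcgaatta
Dll4, chr2:119325534-119325783, plus strand: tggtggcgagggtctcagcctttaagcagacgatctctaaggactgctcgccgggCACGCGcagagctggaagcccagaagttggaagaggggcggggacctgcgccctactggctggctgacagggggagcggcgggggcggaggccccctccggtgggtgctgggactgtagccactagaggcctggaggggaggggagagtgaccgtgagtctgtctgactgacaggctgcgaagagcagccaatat
Notch1, chr2:26503823-26504072, minus strand: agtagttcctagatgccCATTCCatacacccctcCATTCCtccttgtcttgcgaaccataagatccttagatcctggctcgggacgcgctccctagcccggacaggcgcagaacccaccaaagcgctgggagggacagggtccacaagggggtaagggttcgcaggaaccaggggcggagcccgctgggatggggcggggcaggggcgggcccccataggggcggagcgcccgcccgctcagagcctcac
In the annotation (GENCODE M21, GRCm38) the Nrarp window lies wholly upstream of the gene. The Dll4 window also lies wholly upstream of its gene, and 31 of its bases are in annotated exons of another gene. The Notch1 window lies inside the gene, which has a longer transcript there, with 2 bases in annotated exons. Among the windows not shown, those of Jag2 and Dll1 lie wholly in annotated exons, and 124 bases of the Jag1 window do. Of the Dll1 windows, the one further upstream lies outside Dll1, so there the exons are those of another gene.

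The 3 motifs searched on both strands were GGAATG (reverse complement, CATTCC), bound by the TEAD partners of YAP, the RBPJ motif TGGGAA (reverse complement, TTCCCA) and the motif CACGNG of HES proteins (reverse complement, CNCGTG). Matches at the same letters on both strands counted once, and none of the 3 motifs overlapped another in the windows shown. The Notch1 window held 2 matches to the TEAD motif, starting 233 and 216 bases before the start site, and was 1 of the 9 windows with such a match. Of all 32851 windows of this length, 12.6% held one. The RBPJ motif was in 0 of the 9 windows and in 21.6% of all, and Hes1 and Dtx4 had no window to search. The HES motif was in 7 of the 9 windows and in 23.5% of all. In Nrarp its first base lay 108 and in Dll4 195 bases before the start site. The GC content was 61.2% in the Nrarp, 65.6% in the Dll4 and 66.0% in the Notch1 window, against a median of 52.4% over all windows, and the matches are a description of these letters only.

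Levels are given as CPM after TMM scaling, which adjusts each library for its composition, and differences as log2 fold changes of YAP5SA over Ctrl from edgeR's quasi-likelihood test. A gene was called at a p-value adjusted by the Benjamini-Hochberg method under 0.05 over the 13812 genes that had enough counts to be tested. Of the 10 genes 9 were tested, Dll1 being the exception, and 6 were called, 5 of them lower and 1 higher in YAP5SA. Across all genes tested 64.5% were called, 31.3% lower and 33.1% higher, so that a call by itself was common in this comparison. The median log2 fold change was -0.78 over the 9 genes and 0.02 over all genes. The groups did not overlap for 7 of the 9, and for 58.7% of all genes tested. Of the 7, 5 lay lower in every YAP5SA library, against 28.3% of all genes, and Notch2 and Jag2 lay higher, against 30.4%. Because RNA was taken from whole cultures, fewer cells that express a gene and less of its RNA per cell cannot be told apart.

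**Figure D1:**
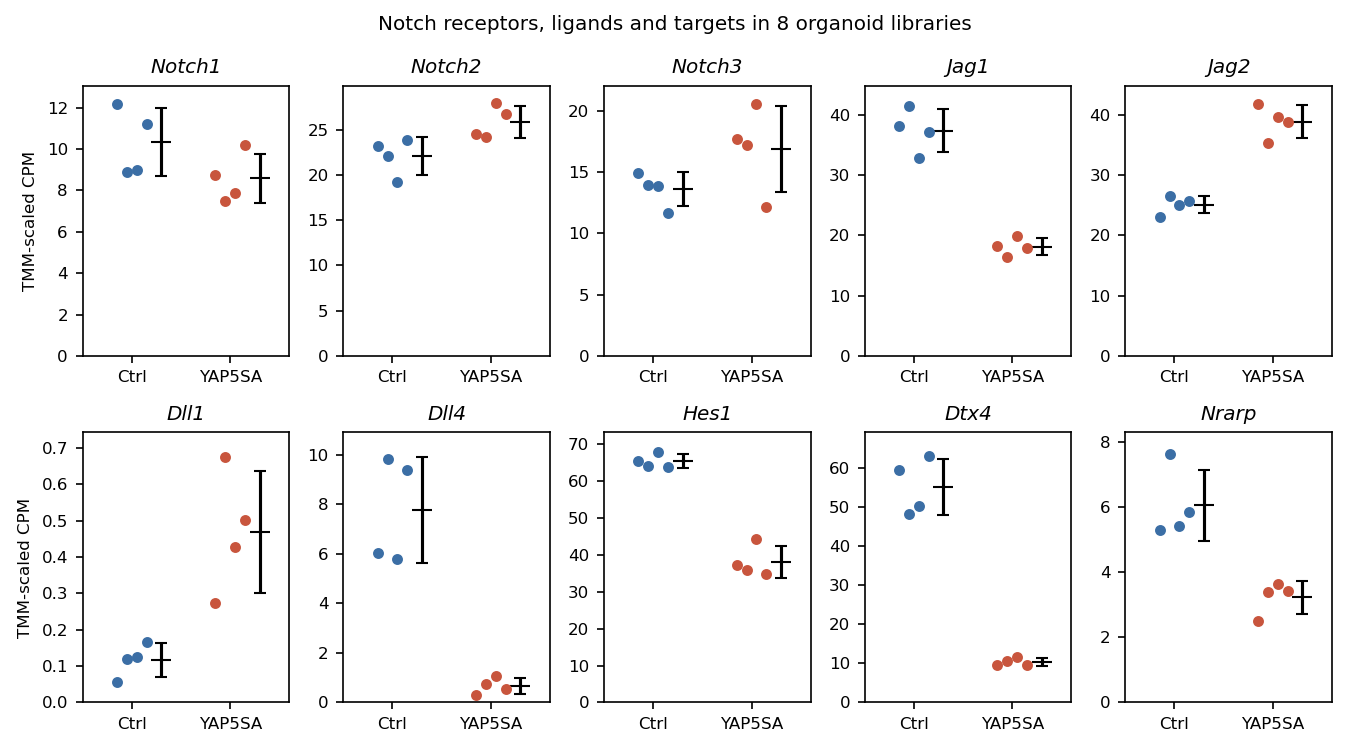
TMM-scaled CPM (vertical axes, each from 0) of the 10 genes in the 4 Ctrl (blue) and 4 YAP5SA (red) libraries, with each group's mean and SD as a black bar beside its points. Jag1, Dll4, Hes1, Dtx4 and Nrarp lie lower in all 4 YAP5SA libraries, Jag2, Dll1 and Notch2 lie higher in all 4, and the groups overlap for Notch1 and Notch3.

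None of the 3 receptor genes was called by edgeR, DESeq2 or limma-voom, and by edgeR Notch2 alone had an unadjusted p under 0.05. Notch1, a receptor found in many epithelia, was at 12.2, 8.89, 9.01 and 11.2 CPM in Ctrl replicates 1 to 4 and at 8.77, 7.49, 7.89 and 10.2 CPM in YAP5SA replicates 1 to 4. The groups overlapped, since YAP5SA replicate 4 lay above Ctrl replicates 2 and 3. The means were 10.3 ± 1.64 and 8.58 ± 1.19 CPM (SD, n = 4 each). Their log2 fold change was -0.26 (SE 0.15, 95% interval -0.59 to 0.07, edgeR adjusted p = 0.147).

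Notch2, its close relative, was at 23.2, 22.2, 19.2 and 23.9 CPM in Ctrl and at 24.5, 24.2, 28.0 and 26.8 CPM in YAP5SA. All 4 YAP5SA libraries lay above all 4 Ctrl libraries, by a narrow margin at the nearest pair. The log2 fold change was 0.23 (SE 0.10, 95% interval 0.01 to 0.44) and missed the threshold (edgeR adjusted p = 0.0602). Its call depended on the scaling: it was 0.28 with upper quartile factors (adjusted p = 0.0232) and 0.40 with library size alone (adjusted p = 0.00418), where the median of all genes moved to 0.19.

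Notch3, a receptor known best from vascular smooth muscle and pericytes, was at 14.9, 13.9, 13.9 and 11.6 CPM in Ctrl and at 17.7, 17.2, 20.5 and 12.1 CPM in YAP5SA. YAP5SA replicate 4 was the low one and lay among the Ctrl libraries, while the other 3 lay above them all. The log2 fold change was 0.31 (SE 0.15, 95% interval -0.01 to 0.64, edgeR adjusted p = 0.0847) with all libraries and 0.44 (adjusted p = 0.00693) without YAP5SA replicate 4. It was 0.49 (adjusted p = 0.0145) when libraries were scaled by size alone. Of 10 markers of smooth muscle and pericytes, 9 stayed below 1 CPM in every library, Kcnj8 was at 0 and Acta2 had counts in 1 library only. Over the libraries of Ctrl and YAP5SA, Myh11 had 5 and 54 counts, Pdgfrb 2 and 20, and Rgs5 41 and 4, so these markers did not move one way. The sum of all 10 was 6.10 to 10.9 CPM in Ctrl and 14.8 to 15.5 CPM in YAP5SA, most of it from Mcam, and its part in the Notch3 values was not tested.

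Among the ligand genes, Jag1 and Dll4 fell and Jag2 rose. Jag1, the Jagged ligand with the higher count in Ctrl, was at 38.1, 41.4, 32.9 and 37.1 CPM in Ctrl and at 18.3, 16.5, 19.9 and 17.9 CPM in YAP5SA. Every YAP5SA library lay far below the lowest Ctrl library. From means of 37.4 ± 3.51 and 18.1 ± 1.39 CPM (SD, n = 4 each), Jag1 fell by 1.04 on the log2 scale (SE 0.10, edgeR adjusted p = 5.97e-07), which is 2.06-fold.

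Jag2, the other Jagged ligand, was at 23.1, 26.5, 25.1 and 25.6 CPM in Ctrl and at 41.7, 35.3, 39.7 and 38.8 CPM in YAP5SA. The groups lay well apart in the opposite direction. Jag2 rose 1.55-fold, from 25.1 ± 1.44 to 38.9 ± 2.67 CPM (SD, n = 4 each). The log2 fold change was 0.63 (SE 0.09, edgeR adjusted p = 2.38e-05). It was the 1 called gene of the 9 that was higher.

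Dll4, a Delta-like ligand best known from sprouting blood vessels, was at 6.04, 9.83, 5.80 and 9.38 CPM in Ctrl and at 0.318, 0.728, 1.07 and 0.547 CPM in YAP5SA. The Ctrl libraries formed a low pair, replicates 1 and 3, and a high pair, replicates 2 and 4, and both lay far above YAP5SA. In counts this was 107 to 168 per Ctrl library and 7 to 20 per YAP5SA library. Dll4 was 11.7-fold lower in YAP5SA, with a log2 fold change of -3.55 (95% interval -4.24 to -2.87, edgeR adjusted p = 3.01e-07). An absolute log2 fold change over 1 was called for 25.5% of all genes tested, and one under -1 for 11.5%. Of the 9 genes these were Jag1, Dll4 and Dtx4, all lower. Gm14207, a transcript annotated on the opposite strand and overlapping Dll4, had 291 counts over the Ctrl and 65 over the YAP5SA libraries. As the strand setting of the counting is not given in the sources used here, reads of the pair cannot be told apart where they overlap.

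The endothelial markers bear on Dll4 because that gene is known best from endothelium. Of 10 such markers 8 stayed below 1 CPM in every library, and Erg was at 0. Pecam1 had 0 to 3 counts per Ctrl library and 0 to 2 per YAP5SA library. Cdh5 had 10, 12, 18 and 4 counts in Ctrl and 0, 2, 0 and 3 in YAP5SA, and Tek had 21, 8, 23 and 6 in Ctrl and 6, 0, 4 and 6 in YAP5SA. In CPM both Cdh5 and Tek were higher in every Ctrl library than in any YAP5SA library. Over the Ctrl and YAP5SA libraries, Eng had 8 and 20 counts, Kdr 1 and 6 and Tie1 0 and 4. Flt1 had 15 and 16, so these markers did not move one way. The summed level of the list was 10.2 to 13.8 CPM in Ctrl and 13.4 to 18.2 CPM in YAP5SA, most of it Sox17, which is also an endodermal factor. The part of these cells in the Dll4 values was not tested.

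Dll1, the Delta-like ligand of several epithelial progenitors, was close to the limit of detection. It had 1, 2, 3 and 3 counts in Ctrl and 6, 13, 8 and 11 in YAP5SA, so that every YAP5SA library held more than any Ctrl library. The totals of 9 and 38 counts give a ratio of 4.45 (exact 95% interval 2.12 to 10.5, which covers counting error only). An exact two-sided permutation test of the 4 against 4 CPM values gave an unadjusted p = 0.0286, the smallest that the 70 assignments allow. Any complete separation of the groups gives this value, and the groups did not overlap for 58.7% of all genes tested. Dll1 stayed below the count filter of edgeR, and with no filter its log2 fold change was 1.94 (adjusted p = 0.0359). By DESeq2, a second test for counts, it was 1.98 (adjusted p = 0.0275).

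Hes1, Dtx4 and Nrarp all fell. Hes1, the transcriptional repressor that serves as the common readout of Notch activity, was at 65.5, 64.2, 67.9 and 63.7 CPM in Ctrl and at 37.1, 35.8, 44.3 and 34.8 CPM in YAP5SA. The Ctrl libraries lay close together and all above YAP5SA, whose replicate 3 was the highest. Hes1 fell from 65.3 ± 1.91 to 38.0 ± 4.32 CPM (SD, n = 4 each). This is a 1.72-fold difference, at -0.78 on the log2 scale (SE 0.09, edgeR adjusted p = 2.75e-06).

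Dtx4, an E3 ubiquitin ligase of the Deltex family that acts on Notch receptors, was at 59.5, 48.3, 50.2 and 63.2 CPM in Ctrl and at 9.49, 10.7, 11.7 and 9.71 CPM in YAP5SA. No YAP5SA library came near the lowest Ctrl value. From means of 55.3 ± 7.18 and 10.4 ± 1.02 CPM (SD, n = 4 each), Dtx4 fell by 2.41 on the log2 scale, or 5.32-fold (SE of the log2 value 0.12, edgeR adjusted p = 4.60e-10).

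Nrarp, a target gene whose ankyrin-repeat product dampens Notch signalling, was at 5.30, 7.64, 5.42 and 5.87 CPM in Ctrl and at 2.50, 3.38, 3.62 and 3.42 CPM in YAP5SA. Ctrl replicate 2 was the highest and YAP5SA replicate 1 the lowest, and the groups did not overlap. Nrarp fell by 0.91 on the log2 scale (SE 0.19, edgeR adjusted p = 0.000956), or 1.87-fold.

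**Figure D2:**
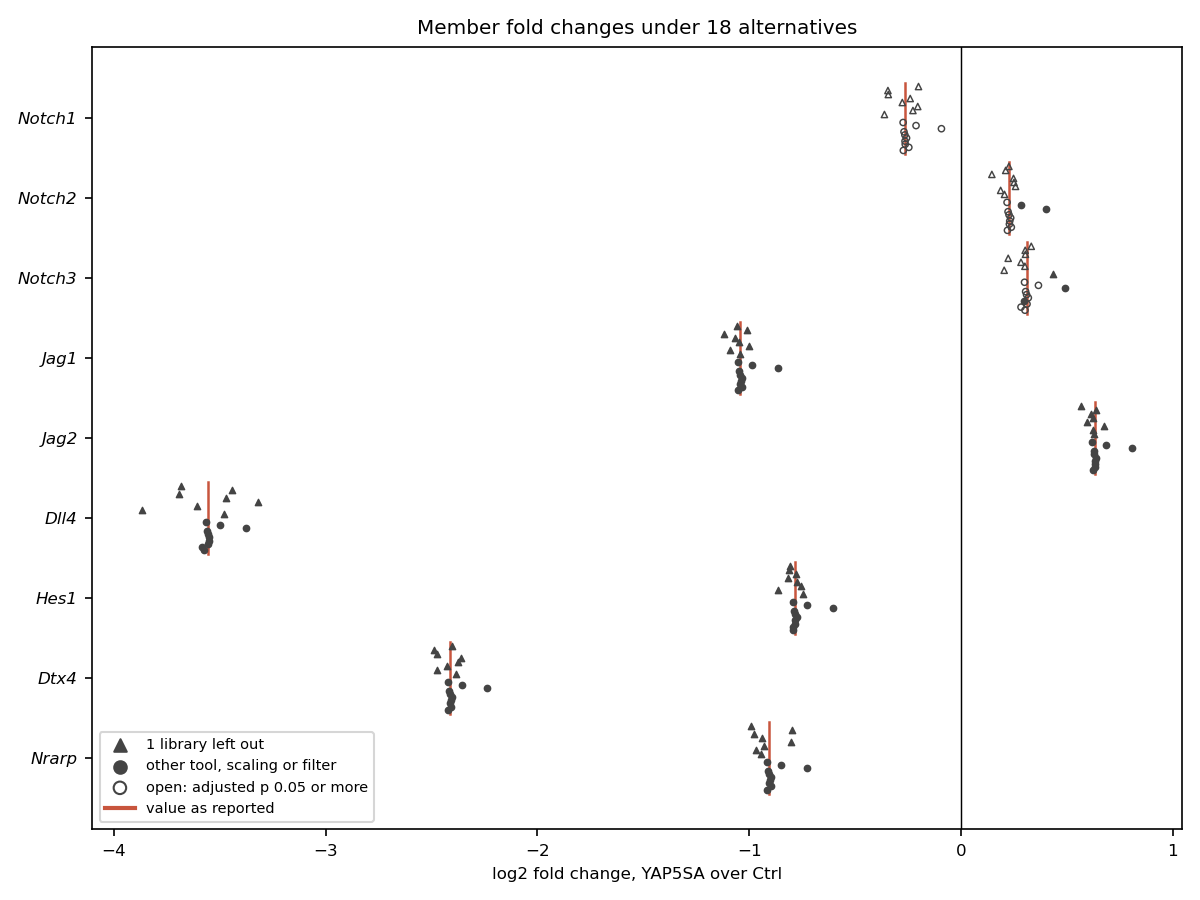
Log2 fold changes (horizontal axis, YAP5SA over Ctrl) of the 9 tested genes under 18 alternatives: triangles leave out 1 library, circles use another tool, scaling or filter, open symbols have an adjusted p of 0.05 or more, and the red line is the value as reported. No gene changes side of 0, and only Notch2 and Notch3 have both open and filled symbols.

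Ratios of 2 genes within a library do not depend on how libraries are scaled, and 5 were compared by exact two-sided permutation tests over the 8 libraries, adjusted over the 5 pairs. The ratio of Jag1 to Jag2 counts was 1.65, 1.56, 1.31 and 1.45 in Ctrl and 0.439, 0.467, 0.501 and 0.462 in YAP5SA. Jag1 thus had more counts than Jag2 in every Ctrl library and fewer in every YAP5SA library. The difference in the mean log2 ratio was -1.67 (exact permutation p = 0.0286, the smallest possible, adjusted 0.0357). Any complete separation of the groups gives this p-value. For this pair it was given in advance, since Jag1 lay lower and Jag2 higher in every YAP5SA library, so it adds no support.

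Hes1 to Notch2, a target against the receptor gene with the highest CPM, went from 2.82, 2.90, 3.54 and 2.66 in Ctrl to 1.52, 1.48, 1.58 and 1.30 in YAP5SA, a log2 difference of -1.02 with the same p-values. Notch1 to Notch2 was 0.526, 0.401, 0.470 and 0.470 in Ctrl and 0.358, 0.309, 0.282 and 0.380 in YAP5SA, a log2 difference of -0.49, also with those p-values. The balance of these receptor genes thus differed between the groups although neither passed the test by itself. Dll1 to Jag1 had a log2 difference of 2.82 with the same p-values, on the few Dll1 counts. For Hes1 to Notch2 and Dll1 to Jag1 too, both genes lay apart between the groups in opposite directions. Their p-values were thus given in advance as well. Notch3 to Notch2 differed by 0.06 (exact permutation p = 0.629), with YAP5SA replicate 4 the lowest of the 8 libraries and Ctrl replicate 4 next.

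**Figure D3:**
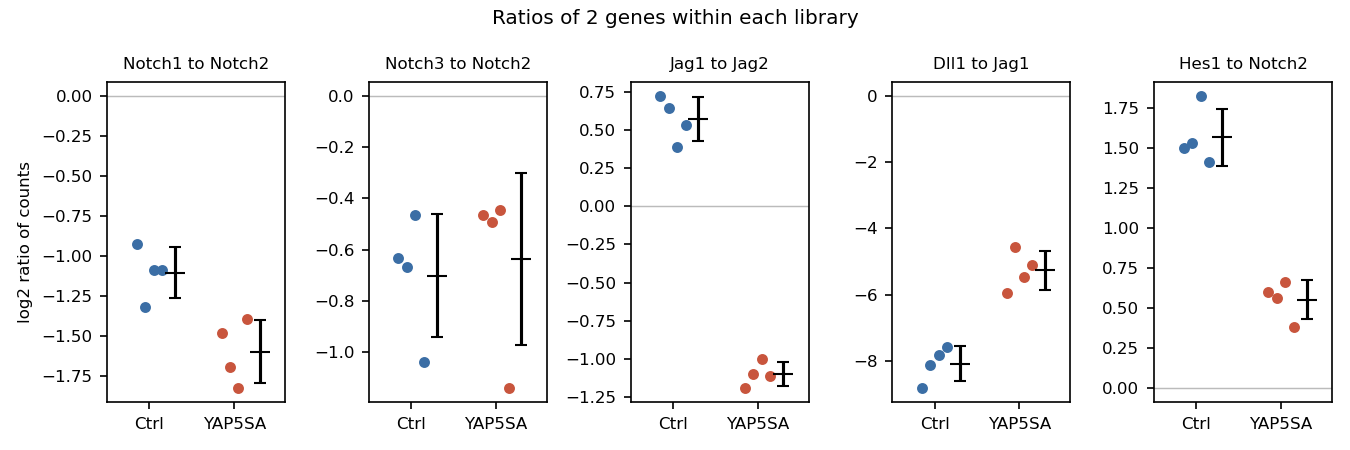
Log2 ratios of counts between 2 genes (vertical axes, which differ in range) in the 4 Ctrl (blue) and 4 YAP5SA (red) libraries, with mean and SD as black bars. The groups are apart for 4 of the 5 pairs, and the Jag1 to Jag2 ratio lies above 0 in every Ctrl library and below 0 in every YAP5SA library. For Jag1 to Jag2, Hes1 to Notch2 and Dll1 to Jag1 this follows from the single genes, which lie apart in opposite directions.

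To compare genes with each other, CPM were divided by the length of the exons in kilobases. On this scale Hes1 was the highest in both groups, at 32.1 ± 0.94 in Ctrl and 18.7 ± 2.12 CPM per kilobase in YAP5SA (SD, n = 4 each). In Ctrl the order went on with Dtx4 at 10.6, Jag1 at 6.42, Jag2 at 3.60, Nrarp at 2.35, Notch2 at 2.05, Dll4 at 2.02, Notch3 at 1.68, Notch1 at 0.726 and Dll1 at 0.0277 CPM per kilobase. The ranges over libraries overlapped between Nrarp and Notch2, between Notch2 and Dll4 and between Dll4 and Notch3, and at no other neighbours in that order. In YAP5SA the order after Hes1 was Jag2 at 5.58, Jag1 at 3.11, Notch2 at 2.40, Notch3 at 2.09, Dtx4 at 1.99, Nrarp at 1.25, Notch1 at 0.603, Dll4 at 0.173 and Dll1 at 0.111 CPM per kilobase. There the overlapping neighbours were Notch2 and Notch3, Notch3 and Dtx4, and Dll4 and Dll1. Dtx4 thus went from the second place to the sixth and Dll4 from the seventh to the ninth. The order in each group was the same with the length of the longest coding transcript, a choice made after seeing the data. Levels moved for some genes: in Ctrl and YAP5SA Hes1 was then at 44.5 and 25.9 CPM per kilobase. Jag2 was at 4.92 and 7.62 and Notch1 at 1.09 and 0.904 CPM per kilobase. The shares below use the exon length only.

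Of the summed level per length of the 4 ligand genes, Jag1 made up 53.3% ± 2.72 in Ctrl and 34.7% ± 0.91 in YAP5SA (SD, n = 4 each), and Jag2 30.0% ± 2.32 and 62.2% ± 1.90. Dll4 made up 16.5% ± 3.10 in Ctrl and 1.92% ± 0.88 in YAP5SA. The Dll1 share was 0.229% ± 0.087 in Ctrl and 1.26% ± 0.53 in YAP5SA. The largest share of ligand transcripts was thus that of Jag1 in Ctrl and that of Jag2 in YAP5SA. The sum itself was 12.1 ± 1.196 and 8.98 ± 0.54 CPM per kilobase. Over the 3 receptor genes the sum was 4.46 ± 0.30 in Ctrl and 5.09 ± 0.43 CPM per kilobase in YAP5SA, and Notch2 held the largest share in both, at 46.0% ± 3.01 and 47.3% ± 3.76. Notch1 held the smallest, at 16.2% ± 1.76 and 12.0% ± 2.38.

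**Figure D4:**
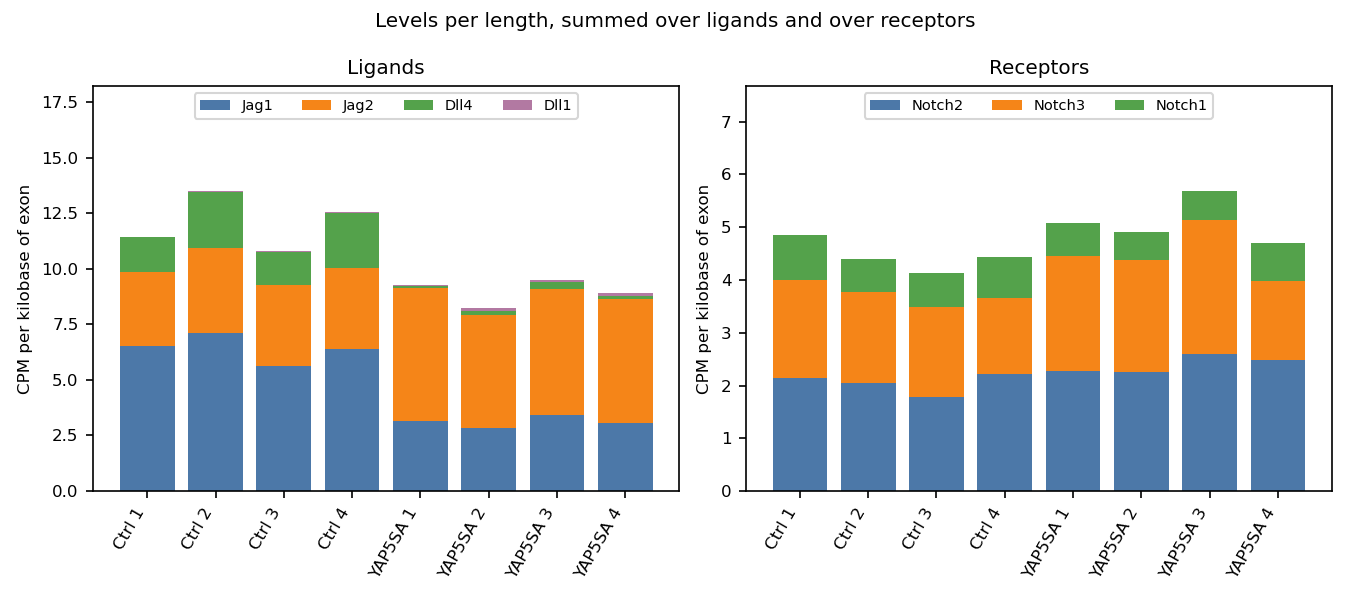
CPM per kilobase of exon (vertical axes, from 0) of the 4 ligand genes and the 3 receptor genes, stacked for each of the 8 libraries. In Ctrl the largest part of each ligand bar is Jag1 and in YAP5SA it is Jag2, while the parts of the receptor bars change less.

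Beyond these 10 genes, 58 others of the pathway were counted, and 43 of them were tested. Of the 43, 14 were higher, 18 lower and 11 not called, with a median log2 fold change of 0.03. The share called was 74.4%, against 64.5% of all genes tested. Beside the counts of each list below stand 31.3% of all genes tested called lower and 33.1% called higher.

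Genes of receptor cleavage fell in 7 cases of 9 and rose in 1, while Adam17 was not called, and their median was -0.41. Adam10, the protease of the first ligand-induced cut, was at 569, 747, 733 and 559 CPM in Ctrl and at 247, 253, 297 and 236 CPM in YAP5SA. All 4 YAP5SA libraries lay below all 4 Ctrl libraries, and Adam10 fell by 1.34 on the log2 scale (SE 0.11, edgeR adjusted p = 1.29e-07). The gamma-secretase genes Psen2, which encodes a catalytic presenilin, and Ncstn, which encodes nicastrin, fell by 1.07 (SE 0.15) and 0.59 (SE 0.07). Psen2 went from 10.3 ± 1.14 to 4.90 ± 0.57 CPM and Ncstn from 168 ± 7.74 to 112 ± 5.83 CPM (SD, n = 4 each). Aph1b, another subunit gene named here after its values were seen, was at 0.58 (SE 0.11) and the 1 higher gene of the 9. It has a near-identical copy, Aph1c, which had 55 counts in Ctrl and 489 in YAP5SA, so the division of reads between them is uncertain.

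In the nuclear complex 6 of 11 genes were lower, 3 higher and 2 not called. Rbpj, the DNA-binding protein through which all Notch receptors act, was at 32.2, 27.5, 33.2 and 28.0 CPM in Ctrl and at 86.0, 84.6, 85.6 and 65.1 CPM in YAP5SA. YAP5SA replicate 4 was lower than the other 3 of its group and still above every Ctrl library. Rbpj rose 2.65-fold, at 1.41 on the log2 scale (SE 0.11, edgeR adjusted p = 4.68e-08). Its processed pseudogene Rbpj-ps3 had 47 and 108 counts against 2332 and 6554 for Rbpj, and how shared reads were counted is not given in the sources used here. The histone acetyltransferase genes Kat2a and Kat2b fell by 1.08 (SE 0.12) and 0.62 (SE 0.09), and the coactivator gene Maml2 fell by 0.73 (SE 0.12). Rbpj and the genes Hes1 and Nrarp, targets of the complex it forms, thus differed between the groups in opposite directions.

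Genes that glycosylate the receptors rose in 3 cases of 6 and fell in 1, and 2 were not called. Poglut1, which adds O-glucose, rose by 0.89 (SE 0.11, edgeR adjusted p = 8.51e-06) from 38.2 ± 7.08 to 70.8 ± 3.53 CPM (SD, n = 4 each). The Fringe gene Rfng, which extends O-fucose, fell by 0.90 (SE 0.23), while Eogt and Pofut1 were higher at 0.46 (SE 0.12) and 0.34 (SE 0.10). The Pofut1 call ended when a minimum fold of 1.2 was required. Genes of ligand endocytosis, which provides the pull on a bound receptor, rose in 3 cases of 6 and fell in 2, and Mib1 was not called. The epsin genes went apart, with Epn2 at 0.88 (SE 0.10) and Epn1 at -0.61 (SE 0.08). The Neuralized ubiquitin ligase genes did so as well, at low levels, with Neurl1a at -1.51 (SE 0.35) and Neurl1b at 0.99 (SE 0.28).

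Of 8 tested genes of receptor trafficking and turnover 2 rose, 1 fell and 5 were not called. Dtx3, of the same Deltex family as Dtx4, rose by 0.67 (SE 0.11, edgeR adjusted p = 0.000108). The endocytic adaptor genes Numb and Numbl, which act against Notch, were called in opposite directions, Numb at -0.27 (SE 0.09) and Numbl at 0.81 (SE 0.20), with overlapping groups for both. The Numb call ended without YAP5SA replicate 3, when libraries were scaled by size alone and when a minimum fold of 1.2 was required. Dtx3l was at -0.35 (edgeR adjusted p = 0.0523) and not called, but it was called in 8 of the 18 alternatives.

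**Figure D5:**
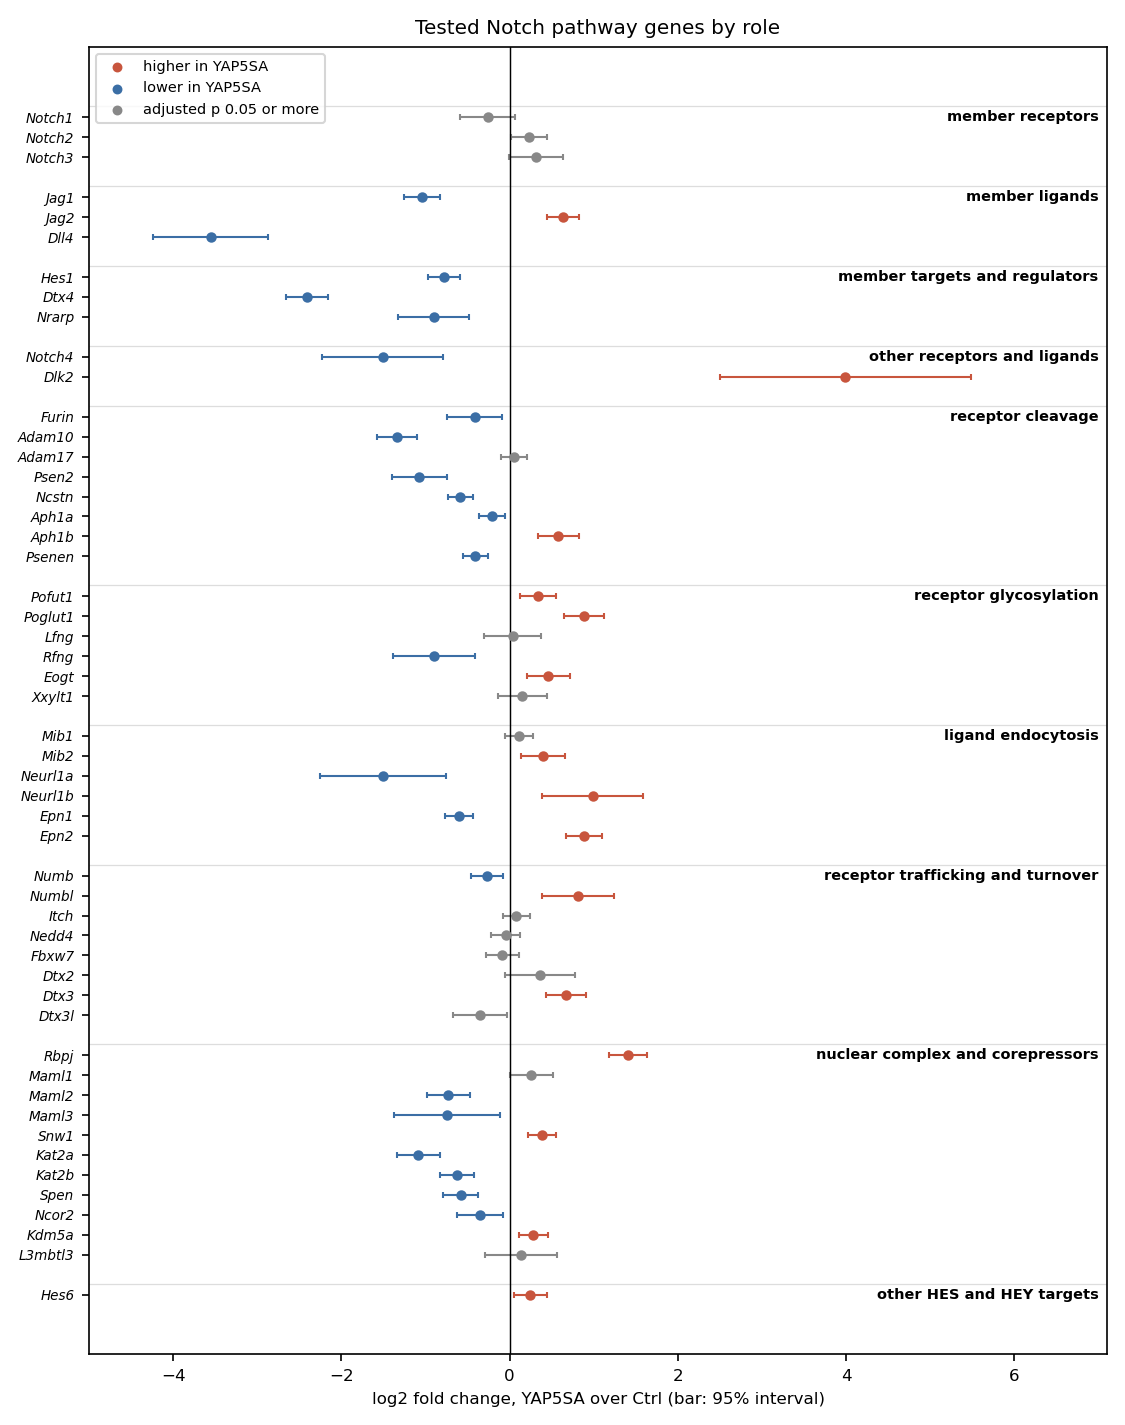
Log2 fold changes of YAP5SA over Ctrl (horizontal axis) with 95% intervals for the tested pathway genes reported here, grouped by role, in red where called higher, in blue where called lower and in grey where the adjusted p was 0.05 or more. Receptor cleavage genes lie mostly to the left of 0, Rbpj to the right, and Notch1, Notch2 and Notch3 near 0.

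The fourth receptor gene, Notch4, which is known from endothelium, was at 2.99, 6.93, 6.05 and 2.85 CPM in Ctrl and at 1.73, 1.04, 2.34 and 1.51 CPM in YAP5SA. The groups did not overlap, although the Ctrl libraries varied more than 2-fold, and Notch4 fell by 1.51 (SE 0.33, edgeR adjusted p = 0.00123). The endothelial markers given beside Dll4 apply here as well, and their part was not tested. Dlk2, a non-canonical ligand that is held to inhibit the pathway, was at 0.056, 0, 0.125 and 0.223 CPM in Ctrl and at 1.59, 0.884, 0.799 and 3.65 CPM in YAP5SA. YAP5SA replicate 4 was the highest. The log2 fold change was 3.99 (SE 0.69, edgeR adjusted p = 0.000174) with all libraries and 3.32 without that library.

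Of 8 other HES and HEY genes, the family of Hes1, 7 had at most 17 counts over the libraries of a group. Hes6, which antagonises Hes1, was the 1 that was tested, with means of 18.6 ± 0.88 and 22.1 ± 1.08 CPM (SD, n = 4 each). Its log2 fold change was 0.25 (edgeR adjusted p = 0.0312). Its call ended in 7 of the 18 alternatives. Over the 4 libraries of each group Hey1 had 16 and 13 counts and Hes2 17 and 8, with 95% intervals of the ratio that include 1. Hey2 had 1 count in Ctrl and 12 in YAP5SA, 6 each in replicates 1 and 4, so that their ratio was 12.7 (95% counting interval 1.87 to 541). Heyl had 0, 4, 4 and 2 counts in Ctrl and 0 in YAP5SA. Hes7 had 0 counts in Ctrl and 1, 1, 5 and 1 in YAP5SA, so that replicate 3 held most of them. Hes3 and Hes5 were at 0 in every library. So were Dll3, the Fringe gene Mfng and the lineage regulators Atoh1, Neurog3 and Neurod1, which HES1 is known to repress. A count of 0 allows up to 0.116 to 0.173 CPM per library, the level of 3 counts. Dlk1 had 5 counts in each group, and Dtx1 had 0 in Ctrl and 1, 0, 3 and 0 in YAP5SA.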

How the data were processed

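The deposited values are raw counts of reads per gene, not normalized by the authors. The submitters' processing notes name cutadapt, HISAT2 2.0.1, HTSeq 0.6.1 and the build mm9. Not given in the sources used here are the annotation, the strand setting, the treatment of shared reads and any filter. Per the labels' protocols, total RNA was sequenced as paired ends of 150 bases on an Illumina NovaSeq. Which build the table's annotation follows was not settled, since 3521 rows have only an Ensembl identifier. Positions and lengths come from a match of symbols to GENCODE M21 and RefSeq on GRCm38.

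Groups and replicate numbers came from the sample titles. Counts were tested on the whole table in R 4.3.3 with edgeR 4.0.16: filterByExpr (minimum count 10, minimum total 15) kept 13812 genes, TMM factors scaled the libraries, and glmQLFTest compared the groups, two-sided, with no covariate. The SE was taken as the log2 fold change over the root of its F statistic. Ratios used counts plus 0.5. Within groups, replicates differed by more than sampling noise (chi-square per degree of freedom 4.69 to 34.9). Reads carry no molecular identifiers, so the floors and the count-ratio intervals of genes below the count filter cover counting error only. The intervals of edgeR's log2 fold changes rest on the SE and so include the spread between libraries.

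The 10 genes and the pathway and marker lists were chosen with earlier results of these data known. All 10 are named. Of each other list the 4 tested genes with the smallest p, any tested gene with an absolute log2 fold change over 1 and any gene below the filter could be named. A few genes of these lists are counted but not reported by name here. The procedure was tested on simulated data. Alternatives were DESeq2 1.42.0, limma-voom (limma 3.58.1), RLE, upper quartile and library size scaling, leaving out genes above 1% of a library, no filter on low counts, the replicate number as a block, a filter at 1 CPM reached in 4 libraries, a minimum fold of 1.2, and leaving out each library. For the ratios they were a pseudocount of 2 or none, the block and leaving out each library.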

Additional observations from a re-analysis of the deposited data

Results flagged for a closer look

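Among the 10 genes and the other named genes, 66 groups of 4 libraries were examined for a library far from the others of its group, and 3 stood out, all in genes outside the 10. Chance alone marks about 1 in 20 groups. The endocytic adaptor gene Epn2 was highest in YAP5SA replicate 4, at 115.7 CPM, against 95.1 to 96.5 CPM in the other 3. Rbpj was lowest in the same library, at 65.1 CPM, against 84.6 to 86.0 CPM. Numbl was lowest in YAP5SA replicate 2, at 8.58 CPM. Without YAP5SA replicate 4 the log2 fold change was 0.80 for Epn2 and 1.49 for Rbpj, and without YAP5SA replicate 2 it was 0.92 for Numbl, all still called by edgeR's quasi-likelihood test. YAP5SA replicate 4 was also the low library for Notch3 and the high one for Dlk2.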

How the results depend on the processing

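Of the 9 tested genes 7 kept the same call in all 18 alternatives of the count test, and none changed direction. Of the 32 named genes that were tested, 26 kept their call. The number of the 10 genes called lower was 5 in every alternative. The number called higher was 1, but 2 with upper quartile scaling (with Notch2), 2 with no filter on low counts and 2 by DESeq2 (both with Dll1), 3 with library size scaling (with Notch2 and Notch3), and 1 to 2 when each library was left out in turn (Notch3 without YAP5SA replicate 4). Library size scaling also moved the share of all calls that were higher from 51.4% to 64.2%. Deviations of same-numbered libraries from their group correlated at 0.065, 0.046, 0.090 and 0.281, and those of differently numbered ones at -0.19 to 0.13. Not every library correlated best with its own number. The labels name no embryo or litter, and the numbers were not taken to pair libraries in the main test. With the replicate number as a block, 2 of the 10 genes were called higher (with Notch3 at 0.30, adjusted p = 0.0350). The ratios with the replicate block were -0.49 for Notch1 to Notch2, -1.67 for Jag1 to Jag2, 2.82 for Dll1 to Jag1 and -1.02 for Hes1 to Notch2, where 4 pairs allow no p below 0.125. Leaving out each library in turn gave -0.56 to -0.42, -1.73 to -1.62, 2.57 to 3.05 and -1.07 to -0.93, where 4 against 3 allow no p below 0.0571. The p-values of these designs cannot pass the threshold and say nothing about stability, while the differences in these ratios kept their sign. Notch3 to Notch2 ranged from -0.0477 (without Ctrl replicate 4) to 0.23 and was never called. Depth limits Dll1 and the other pathway genes below the count filter, whose ratios rest on few counts.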
